A study of Mus musculus with 4 samples.

Results

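The genes described here make serine, carry single carbons on folate and build purine and pyrimidine nucleotides. They were chosen by name, with no rule on measured values but with earlier results of these data known. All 44 named genes were found among the 50600 genes of the files. The RNA sequenced came from primary T cells of C57BL/6NJ mice, with no genetic change and no second condition given in the labels. The 4 libraries are biological replicates 1 to 4 of 1 group, and they share a donor entry, so separate animals or cultures are not documented and every spread below is the spread between these libraries. Age and sex were not recorded. The file headers name the cells as Th0 (activated T helper cells without polarising cytokines), activated, sorted and 72 h, and a protocol linked in the labels concerns CD4 T cell differentiation. All 7 T cell markers were present, with summed levels of 7298 to 7746 TPM (counts scaled to gene length and to the total of the library) per library. The 3 neutrophil markers were at 0 in every library, and the markers of B cells, macrophages and monocytes, dendritic cells and natural killer cells summed to at most 3.49 TPM per list and library. The 2 CD8 markers summed to 17.5 to 29.5 TPM, nearly all of it Cd8b1 at 17.6, 21.4, 17.5 and 29.2 TPM in replicates 1 to 4, and Cd8a was at 0.511 TPM or less. The part of CD8 cells in the results was not tested.

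As background, activated T cells grow and divide quickly, and each division needs a new set of nucleotides. Serine made from a glycolytic intermediate, or taken up, passes a carbon to tetrahydrofolate, and these folate-bound carbons enter the purine ring, thymidylate and methionine. Purines and pyrimidines are made new or recovered by salvage kinases and phosphoribosyltransferases, and ribonucleotide reductase turns ribonucleotides into the deoxy forms used for DNA. The 44 genes were read as 4 arms: serine with 3 genes, folate and methionine with 12, purine with 14, and pyrimidine and deoxynucleotide with 15.

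Most of the 44 genes were abundant in these cells. Of them, 25 were at 100 TPM or more in every library, against 8.57% of the 21751 protein-coding genes of the nuclear genome. At 1 TPM or more in every library were 43 of 44, against 49.9% of those protein-coding genes, and the exception was Aldh1l2. The share at 100 TPM or more was 2 of 3 serine genes, 6 of 12 folate and methionine genes, 10 of 14 purine genes and 7 of 15 pyrimidine and deoxynucleotide genes. In bulk RNA, fewer cells expressing a gene and less of its RNA per cell cannot be told apart.

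The 3 highest genes were Aprt, Hprt and Rrm2, of which the first pair salvage purine bases. Aprt (chr8:122574635-122576909, mm10) was at 565, 575, 559.8 and 596 TPM in replicates 1 to 4, above every other gene of the set in every library. Hprt (chrX:52988137-53021659) was at 475, 438, 401 and 425 TPM, and Rrm2 (chr12:24708241-24714146) at 433, 439, 419 and 426 TPM. The ranges of Hprt and Rrm2 overlapped, and Hprt was above Rrm2 in replicate 1 only, so their order differed between libraries. With the length of the principal transcript in place of all annotated exons, Rrm2 was at 379 ± 7.46 and Hprt at 304 ± 22.5 TPM. The 3 lowest genes all belong to the folate arm: Aldh1l1 (chr6:90486427-90600203) at 1.99 ± 0.214 TPM, Mthfd2l (chr5:90931117-91021368) at 1.78 ± 0.249 TPM and Aldh1l2 (chr10:83487450-83534140) at 0.433 ± 0.218 TPM (SD, n = 4 for each).

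**Figure D1:**
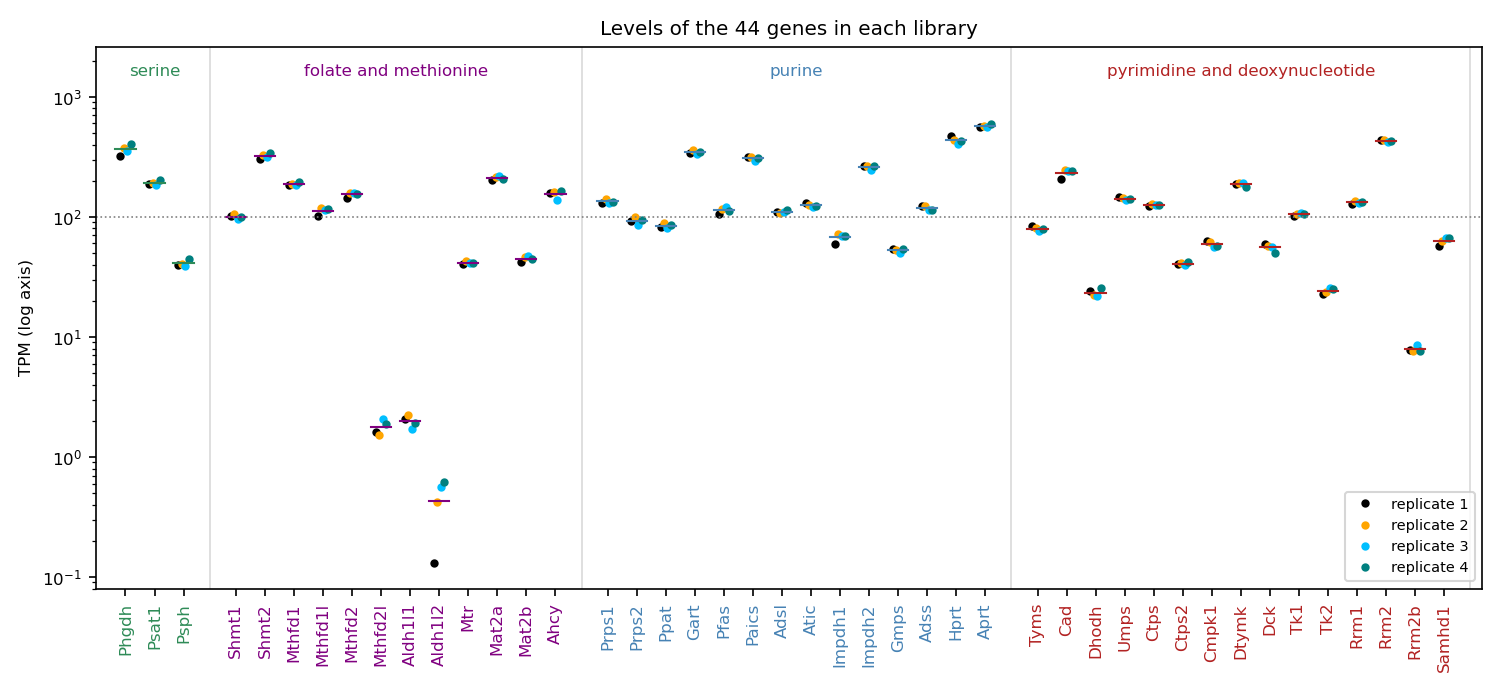
TPM of the 44 genes on a log axis, 1 point per library, with a horizontal line at the mean of 4 libraries; genes are grouped by arm and the dotted line marks 100 TPM. The points of most genes lie close together, those of Aldh1l2 spread from 0.130 to 0.614 TPM, Aprt is highest, and Mthfd2l, Aldh1l1 and Aldh1l2 lie far below the rest.

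Arm medians were 192 ± 7.53 TPM for serine, 122 ± 3.19 for purine, 107 ± 3.99 for folate and methionine and 79.9 ± 3.06 for pyrimidine and deoxynucleotide genes (SD, n = 4). This order held in each of the 4 libraries. In every library the serine median was the value of Psat1 and the pyrimidine median that of Tyms. The difference of these medians in TPM is thus the difference between those genes. As summed TPM the order was different, with purine at 2821 ± 72.4, pyrimidine and deoxynucleotide at 1709 ± 26.5, folate and methionine at 1336 ± 38.7 and serine at 597 ± 45.1, since the arms hold 14, 15, 12 and 3 genes. On the scale of log2(TPM + 0.1), the serine median lay above the pyrimidine median by 1.26 ± 0.08 and above the folate median by 0.85 ± 0.06, each in 4 of 4 libraries. The purine median lay above the pyrimidine median by 0.61 ± 0.04. The folate median lay above the pyrimidine median by 0.41 ± 0.08, but below it by 0.12 when the length of the principal transcript replaced that of all annotated exons, so the order of those arms depends on the gene length used. The serine median lay above the purine median by 0.64 ± 0.09, while the means over the genes differed by -0.13, with the opposite sign. These medians are given as descriptions, with no p.

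In the serine arm, all 3 enzymes of the pathway were expressed, and each enzyme was lower than the one before it. Phgdh (chr3:98313170-98339990), which takes carbon out of glycolysis by oxidising phosphoglycerate, was at 319.9, 374, 355 and 408 TPM in replicates 1 to 4. Psat1 (chr19:15904678-15947337), the transaminase that follows, was at 188, 190.4, 186 and 202 TPM, and Psph (chr5:129765558-129787449), the phosphatase that releases serine, at 39.7, 40.7, 39.1 and 44.2 TPM. The ranges of the 3 genes did not overlap. Psat1 differed from Phgdh by -0.92 ± 0.11 on the log2 scale in 4 of 4 libraries (exact two-sided sign-flip permutation test, in which 2 of 16 sign patterns gave so large a difference). In CPM (counts scaled to the library total, with no gene length) that difference was -0.15, in 3 of 4 libraries. Psph differed from Phgdh by -3.14 ± 0.09, an 8.84-fold lower level, which shrank to 4.65-fold with the principal transcript length. With 4 libraries 2 of 16 is the fewest that this test allows, so no pair can pass 0.05. It was reached by each of the 22 gene pairs compared, and the Benjamini-Hochberg adjustment over the 22 left it at 2 of 16. Every pair had 1 direction in 4 of 4 libraries in TPM, and 20 of 22 did in CPM. Among these 20, Prps1 minus Prps2 and Rrm2 minus Rrm1 had the opposite direction in CPM to that in TPM.

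Phgdh has a near copy in the genome. Of the 50-base stretches of its transcripts, 63.1% also occur in other genes, chiefly in the processed pseudogene Gm7901, which is 98.9% identical over 1595 aligned bases. The pseudogene held 1.06% to 1.63% of the counts of the pair. Read pairs placed at several sites were not counted, so the level of Phgdh is uncertain. The start of Psph overlaps that of Cct6a, a chaperonin gene on the opposite strand at 399 ± 18.6 TPM, over 23.9% of the 50-base stretches of Psph, and counting used the strand.

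In the folate arm, 9 of 12 genes were above 40 TPM on average, while Mthfd2l, Aldh1l1 and Aldh1l2 were below 2 TPM. The 5 genes of the mitochondrial branch summed to 592 ± 28.3 TPM and the 3 of the cytosolic branch to 291 ± 6.61 TPM (SD, n = 4). Shmt2 (chr10:127517123-127522444), the mitochondrial serine hydroxymethyltransferase, was at 303, 329.6, 317 and 339.5 TPM in replicates 1 to 4. Shmt1 (chr11:60788104-60811718), its cytosolic counterpart, was at 103, 105, 95.5 and 99.6 TPM. Every library held more Shmt2 than Shmt1, by 1.68 ± 0.09 on the log2 scale, or 3.20-fold, under either gene length.

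Mthfd2 (chr6:83305691-83325908), a mitochondrial methylenetetrahydrofolate dehydrogenase and cyclohydrolase, was at 145, 158, 158 and 157 TPM. Its paralog Mthfd2l, with the same reactions, was at 1.61, 1.54, 2.08 and 1.88 TPM. Of the 22 pairs this was the widest gap, 6.37 ± 0.17 on the log2 scale, or 82.7-fold, and 46.3-fold with the principal transcript length. Mthfd1l, the mitochondrial ligase that releases formate, was at 113 ± 7.28 TPM, and the multifunctional cytosolic Mthfd1 at 188 ± 4.46 TPM. Mthfd1 lay above Mthfd1l by 0.74 ± 0.08 and Mthfd2 above Mthfd1l by 0.45 ± 0.04 on the log2 scale.

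The formyltetrahydrofolate dehydrogenases return folate to its free form by oxidising the carbon to carbon dioxide. The cytosolic Aldh1l1 was at 2.06, 2.23, 1.73 and 1.93 TPM, and the mitochondrial Aldh1l2 at 0.130, 0.424, 0.565 and 0.614 TPM. The lowest of these values rests on 11 counts in replicate 1, and the other libraries had 116, 55 and 136. Aldh1l1 exceeded Aldh1l2 by 2.09 ± 0.83 on the log2 scale, with a difference of 3.23 in replicate 1 and 1.46 to 2.15 in the others. Its end overlaps the gene D10Wsu102e on the opposite strand, over 16.8% of the 50-base stretches of Aldh1l2.

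The methionine cycle was represented by 4 genes. Mat2a (chr6:72432799-72439558), the catalytic subunit that makes S-adenosylmethionine, was at 205, 214, 221 and 206 TPM, and Mat2b (chr11:40679314-40695203), its regulatory subunit, at 42.0, 46.5, 46.9 and 44.2 TPM. Mat2a stood 2.23 ± 0.04 higher on the log2 scale, or 4.70-fold, and 2.93-fold with the principal transcript length. Ahcy, which clears S-adenosylhomocysteine, was at 156 ± 11.1 TPM, with its lowest value, 139, in replicate 3. Methionine synthase, Mtr, was at 41.4 ± 1.11 TPM, and at 15.6 with the principal transcript length. That transcript has 8294 bases, but the exons counted for Mtr add up to only 4482. The value of 15.6 thus includes bases that were not counted and is not an equal alternative.

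In the purine arm, all 14 genes were expressed, from Gmps at 52.7 ± 1.86 TPM upwards. Prps1 and Prps2, the X-linked synthetases of phosphoribosyl pyrophosphate, were at 134 ± 4.88 and 92.4 ± 5.54 TPM. Prps1 was higher by 0.54 ± 0.05 on the log2 scale in 4 of 4 libraries. In CPM the difference was -0.42. The annotated exons add up to 1993 bases for Prps1 and 3873 for Prps2.

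A near copy of Prps1 on another chromosome also had reads counted to it, and whether it acts at this step was not tested. Prps1l3 (chr12:57230412-57239882, annotated as protein-coding and chosen for mention after its values were seen) was at 81.3, 82.8, 86.5 and 85.4 TPM in replicates 1 to 4. It held 34.8%, 33.6%, 36.3% and 35.5% of the counts of Prps1 and Prps1l3 together, with Prps2 left out. Over 1456 aligned bases the transcripts are 94.8% identical, and 10.1% of the 50-base stretches of Prps1 occur elsewhere. The first 60 coding bases are shown because they let a reader see how few bases separate the 2 genes there, with the 3 bases that differ in capitals:
Prps1: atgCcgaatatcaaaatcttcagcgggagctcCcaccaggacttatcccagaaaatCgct
Prps1l3: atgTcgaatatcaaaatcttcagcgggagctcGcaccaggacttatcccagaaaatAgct

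The enzymes that build the purine ring were at 84.5 to 346 TPM. Ppat, which commits phosphoribosyl pyrophosphate to purines, was lowest, between 81.3 TPM in replicate 3 and 88.7 TPM in replicate 2, with a mean of 84.5 ± 3.21. Gart, which joins several steps of the pathway in 1 protein, was at 339, 362, 336 and 349 TPM, and Paics, which joins a carboxylase and a synthetase, at 313, 315, 289.6 and 308 TPM. Gart lay above Ppat by 2.03 on the log2 scale in replicates 1 and 2 and by 2.04 in replicates 3 and 4, with an SD of 0.0084, the smallest of the 22 pairs. Paics lay above Ppat by 1.86 ± 0.04, or 3.62-fold. Ppat and Paics (chr5:76913249-76951578 and chr5:76951307-76967509) lie head to head, with annotated starts 271 bases apart. The other ring enzymes were Pfas at 114 ± 6.44, Adsl at 110.2 ± 2.99 and Atic, which closes the ring to give IMP, at 125 ± 3.54 TPM. Atic was at 245 TPM with the principal transcript length.

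After IMP, the pathway splits to GMP and AMP. Impdh2 (chr9:108560286-108565584), which commits IMP to GMP, was at 266, 266, 246 and 267 TPM in replicates 1 to 4, and its paralog Impdh1 (chr6:29200434-29216364) at 59.4, 71.6, 69.8 and 69.7 TPM. Impdh2 was higher by 1.95 ± 0.15 on the log2 scale, or 3.87-fold. Gmps, which finishes GMP, was lower than both, and Adss, on the AMP branch, was at 118 ± 5.22 TPM. Impdh2 has a processed pseudogene, Impdh2-ps, that is 99.7% identical over 1545 bases and held 1.83% to 2.66% of the counts of the pair. Their first 60 coding bases do not differ, so a read lying inside them cannot be placed, and the stretch is shown for that reason:
Impdh2 and Impdh2-ps: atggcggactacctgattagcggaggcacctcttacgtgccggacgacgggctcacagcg

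The same holds for Ahcy and the gene Gm4737, which are 99.7% identical over 2086 bases and do not differ in the first 60 coding bases. Gm4737 held 0.396% to 1.34% of the counts of that pair. Of the 50-base stretches, 73.9% of those of Impdh2 and 77.0% of those of Ahcy occur in other genes. The levels of Impdh2 and Ahcy are therefore uncertain.

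Both salvage enzymes of purine bases stood above the enzymes of the ring. Aprt recovers adenine, and Hprt recovers hypoxanthine and guanine. Together they summed to 1008 ± 34.0 TPM, and the 6 ring enzymes to 1086 ± 23.0 TPM. Hprt differed from Aprt by -0.40 ± 0.11 on the log2 scale, or 1.32-fold, and by 2.51-fold with the principal transcript length, where Hprt was at 304 TPM and Aprt at 763 TPM. Hprt was highest in replicate 1, at 475 TPM, and lowest in replicate 3, at 401 TPM.

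In the pyrimidine arm, Cad, which makes the first intermediates of the ring, was at 205, 244, 243 and 239 TPM in replicates 1 to 4 (chr5:31054780-31078479). Dhodh (chr8:109591343-109608673), the enzyme of the inner mitochondrial membrane that oxidises dihydroorotate, was at 23.4 ± 1.61 TPM, highest in replicate 4 at 25.4 TPM. Umps, which turns orotate into UMP, was at 142 ± 3.58 TPM. The gap between Cad and Dhodh was 3.31 ± 0.18 on the log2 scale, or 9.91-fold, and 3.67-fold with the principal transcript length. Cad exceeded Umps by 0.71 ± 0.15. Of the CTP synthetases, Ctps was at 125 ± 2.06 and Ctps2 at 40.8 ± 0.789 TPM, a difference of 1.62 ± 0.03 on the log2 scale, or 3.07-fold. Cmpk1, the kinase for UMP and CMP, was at 59.6 ± 3.30 TPM.

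The last enzymes of thymidine nucleotide synthesis were at different levels. Tyms, which methylates dUMP with a folate carbon, was at 83.5, 80.7, 76.1 and 79.4 TPM, and Dtymk, the kinase that follows, at 188, 192, 192 and 179 TPM. Tyms was lower by 1.23 ± 0.08 on the log2 scale, or 2.34-fold, but in CPM the difference was -0.02, in 2 of 4 libraries, so this gap rests on the scaling by gene length. The salvage kinase of the cytosol, Tk1, was at 105 ± 2.20 TPM, with 106 or 107 TPM in replicates 2 to 4, its mitochondrial counterpart Tk2 at 24.2 ± 1.33 TPM and the deoxycytidine kinase Dck at 55.8 ± 3.91 TPM. Tk1 exceeded Tk2 4.34-fold and Dck 1.89-fold, and with the principal transcript length 10.6-fold and 5.55-fold, so the size of both gaps depends on the gene length. The annotated exons of Tk1 add up to 3.61 times its principal transcript, the highest ratio of the 44 genes.

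Ribonucleotide reductase pairs a large subunit, Rrm1, with a small subunit, Rrm2 or the p53-inducible Rrm2b. Rrm1 (chr7:102441695-102469771) was at 128, 136, 131 and 132 TPM in replicates 1 to 4, and Rrm2b (chr15:37923952-37961318) at 7.72, 7.60, 8.64 and 7.57 TPM. Rrm2 exceeded Rrm2b by 5.75 ± 0.11 on the log2 scale, or 53.8-fold, and 48.2-fold with the principal transcript length. Rrm2 exceeded Rrm1 by 1.70 ± 0.04, or 3.25-fold, but 1.49-fold with the principal transcript length, and in CPM the difference was -0.29. Samhd1, which breaks down deoxynucleotides, was at 56.7, 63.4, 66.8 and 67.0 TPM, lower than Rrm1 in every library by 1.06 ± 0.10.

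**Figure D2:**
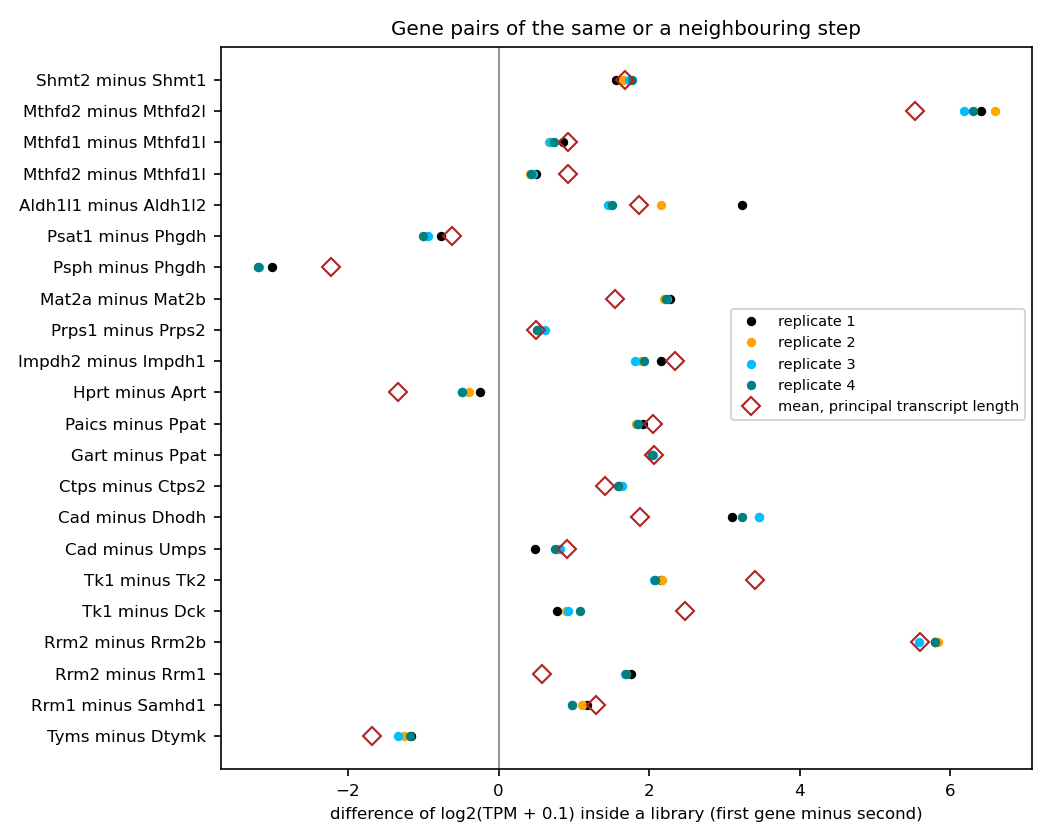
Difference of log2(TPM + 0.1) between the genes of 22 pairs, first gene minus second, with 1 filled point per library; the open diamond is the mean with the principal transcript length. All 4 points of each pair lie on 1 side of 0, Mthfd2 minus Mthfd2l and Rrm2 minus Rrm2b are farthest out, and the diamonds of the Tk1, Cad minus Dhodh and Rrm2 minus Rrm1 pairs lie away from their points.

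Many of these values depend on the gene length. The exonic length in the files was 0.540 to 3.61 times the principal transcript for the 44 genes, with a median of 1.36, and more than 2 times for 9 of them. The ratio of 0.540 is that of Mtr, whose principal transcript holds bases outside the counted exons. With the principal transcript length the highest 3 genes were Aprt at 763, Rrm2 at 379 and Dtymk at 344 TPM. Of the 44, 22 were then at 100 TPM or more in every library, and the share of all protein-coding genes under that length is not given.

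**Figure D3:**
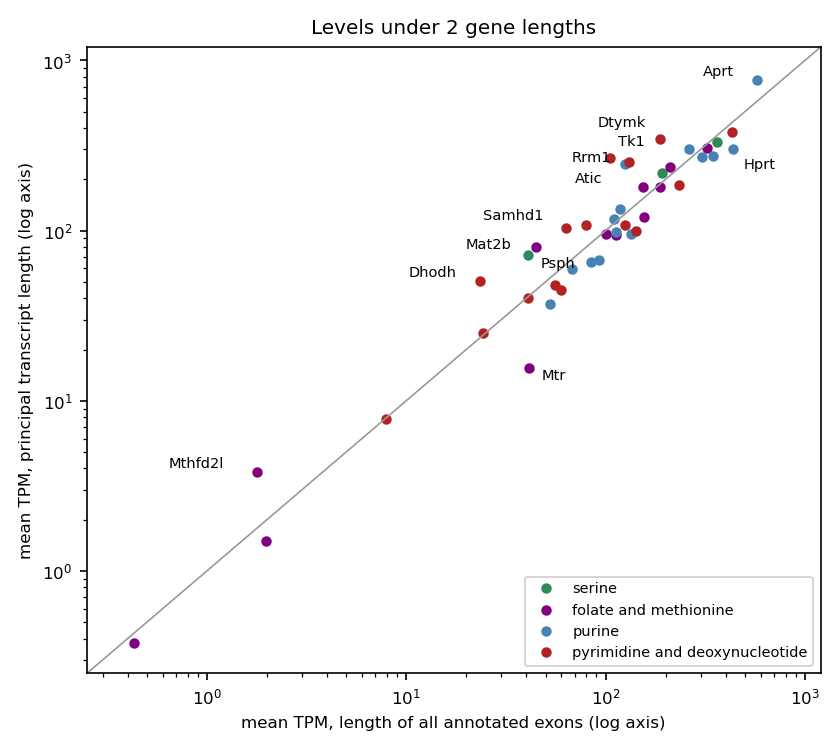
Mean TPM of the 44 genes over 4 libraries with the length of all annotated exons (x, log axis) and with the principal transcript length (y, log axis), coloured by arm; the line marks equal values and some genes away from it are named. Tk1 moves from 105 to 266 TPM and Mtr from 41.4 to 15.6 TPM, where the principal transcript of Mtr is longer than its counted exons.

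The 5′ flanks of the genes were searched for 4 short motifs on both strands, in windows from 250 bases before to 50 after each RefSeq start (GRCm38.p6). Windows were found for 40 of the 44 genes, 45 windows in all. CACGTG, the E-box letters bound by Myc and related factors, occurred in 5 of 45 windows (11.1%), those of Paics, Atic, Impdh2, Tyms and Dtymk, against 7.15% of all 32851 windows. CCAAT occurred in 20 of 45 (44.4%) against 37.4%, TGATGNAA in 1 of 45 (2.22%, Prps1) against 3.97%, and the E2F-like TTTNGCGC in 0 of 45 against 1.38%. These matches are descriptions of letters, not of binding. The upstream parts of 4 genes of deoxynucleotide synthesis are shown because they show which of these letters precede genes of the same pathway, in the direction of transcription, with matches of either strand in capitals (ATTGG is CCAAT on the other strand). They lie at chr5:30073626-30073875 (minus strand) for Tyms, chr1:93801935-93802184 (minus) for Dtymk, chr7:102441445-102441694 (plus) for Rrm1 and chr12:24708004-24708240 (plus) for Rrm2.
Tyms: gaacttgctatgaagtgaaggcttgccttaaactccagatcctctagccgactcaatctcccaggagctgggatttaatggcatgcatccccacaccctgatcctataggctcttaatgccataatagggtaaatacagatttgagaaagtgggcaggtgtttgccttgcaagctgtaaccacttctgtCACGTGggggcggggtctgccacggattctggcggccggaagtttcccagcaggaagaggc
Dtymk: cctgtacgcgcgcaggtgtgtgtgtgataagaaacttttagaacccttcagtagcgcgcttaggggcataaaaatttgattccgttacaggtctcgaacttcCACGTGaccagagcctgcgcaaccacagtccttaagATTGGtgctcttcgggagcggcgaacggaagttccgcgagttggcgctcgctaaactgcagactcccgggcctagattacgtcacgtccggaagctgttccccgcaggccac
Rrm1: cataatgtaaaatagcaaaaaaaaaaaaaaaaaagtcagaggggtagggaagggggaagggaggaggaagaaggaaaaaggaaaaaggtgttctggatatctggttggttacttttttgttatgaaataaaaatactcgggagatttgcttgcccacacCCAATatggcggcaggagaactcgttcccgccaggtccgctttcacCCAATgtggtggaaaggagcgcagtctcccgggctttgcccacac
Rrm2: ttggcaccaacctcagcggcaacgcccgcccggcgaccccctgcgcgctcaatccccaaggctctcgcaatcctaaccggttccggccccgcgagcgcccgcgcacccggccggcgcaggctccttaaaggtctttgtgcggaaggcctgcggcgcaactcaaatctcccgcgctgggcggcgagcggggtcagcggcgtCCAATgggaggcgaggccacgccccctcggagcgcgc
Tyms and Dtymk each hold CACGTG, and Dtymk also holds CCAAT, while the subunit genes Rrm1 and Rrm2 hold CCAAT without CACGTG. The windows of Tk1, Tk2, Dck and Samhd1, which also act on deoxynucleotides, hold none of the 4 motifs, so the genes shown are not typical of all. The printed motifs do not overlap one another.

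Other genes of these pathways were taken from lists of 107 genes, of which 106 were matched and 84 were at 1 TPM or more in every library. Of 28 genes of folate uptake and one-carbon use, 19 passed that level and 0 were at 100 TPM or more in every library. The highest were the folate carrier Slc19a1 at 103 ± 3.28, Dld at 99.5 ± 1.94 and Gcsh at 81.3 ± 7.23 TPM, the latter 2 being parts of the glycine cleavage system. Amt and Gldc, the other parts of that system, were far lower, at 5.90 ± 1.52 and 1.73 ± 0.152 TPM. In the same list 7 genes, among them Mat1a, Bhmt and Folr1, had 0 counts in every library, where 0 allows up to 3 counts, or 0.0252 to 0.0858 CPM by library depth.

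Serine and glycine transport and use had 13 of 15 genes at 1 TPM or more and 6 at 100 or more. The neutral amino acid carrier Slc1a5 was at 471 ± 36.0, the mitochondrial serine carrier Sfxn1 at 211 ± 5.95 and the large neutral amino acid carrier Slc7a5 at 192 ± 10.3 TPM. Among other purine genes, 21 of 23 matched reached 1 TPM, with Gmpr2, a reductase of GMP, at 124 ± 3.15 TPM and Itpa, which hydrolyses inosine triphosphate, at 122 TPM (108 to 134 over the libraries). Among other pyrimidine and deoxynucleotide genes, 20 of 26 reached 1 TPM. The highest there were Dctpp1 at 455 ± 30.5, the nucleotidase Nt5c at 341 ± 16.0 and Dut, which removes dUTP, at 309 ± 29.1 TPM.

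For nucleoside transport 4 of 6 genes reached 1 TPM, led by the equilibrative carrier Slc29a1 at 178 ± 11.0, with Slc29a3 at 53.2 ± 2.47 and Slc28a2 at 28.8 ± 2.28 TPM. Of 8 regulators known to act on these genes in other settings, 7 reached 1 TPM. Atf4 was at 657 ± 28.5, Myc at 425 ± 30.8 and E2f2 at 66.2 ± 7.55 TPM, and Mycn was below 1 TPM in every library, with a mean of 0.703 ± 0.157.

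**Figure D4:**
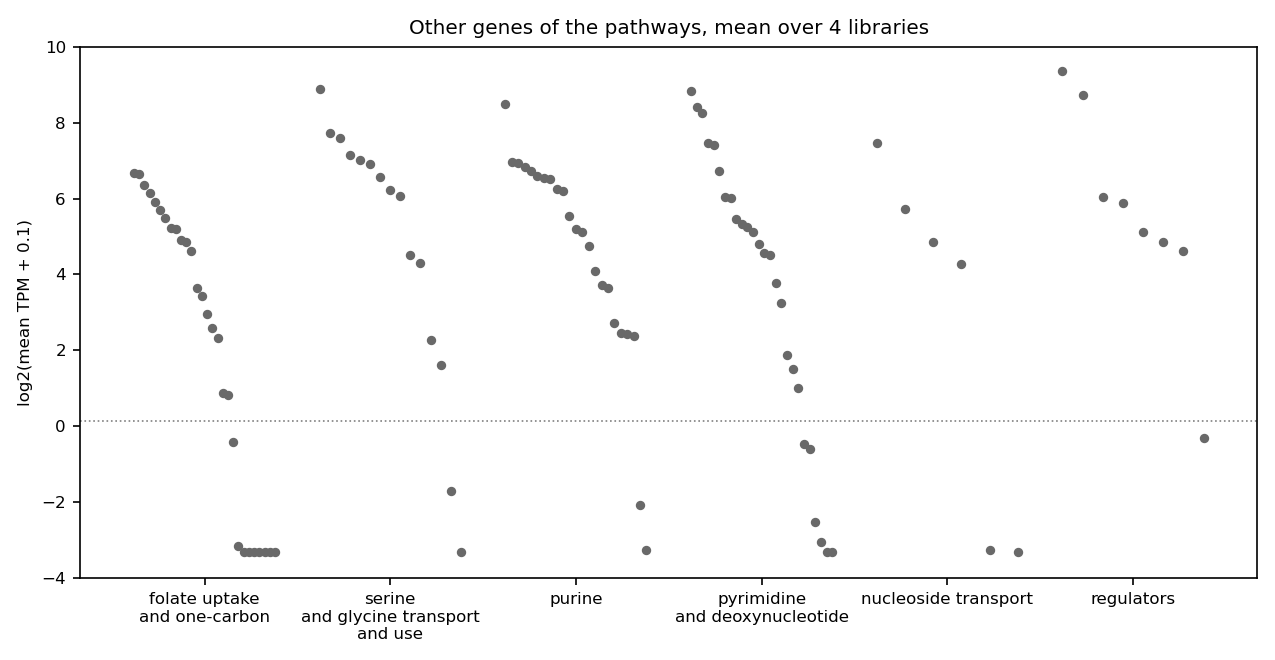
log2(mean TPM + 0.1) over 4 libraries of the other genes of the pathways, 1 point per gene, in 6 lists ordered from high to low; the dotted line marks 1 TPM. Each list has genes below the dotted line beside abundant ones.

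Variation between libraries was tested across 14269 genes with the goodness of fit of edgeR (whether a gene varies more than genes of its level, Benjamini-Hochberg adjustment at 0.05). All 44 genes were tested and 0 were called, against 0.463% of all genes tested. At an unadjusted p below 0.05 were 2 of 44, Aldh1l2 and Hprt, against 5.69% of all genes. In edgeR the adjusted p was 0.710 for Aldh1l2 and 0.867 for Hprt. With a common dispersion edgeR called Aldh1l2 alone of the 44, with an adjusted p of 9.59e-04. The variance test of limma called 0 of 44 and had 2 at p below 0.05. Of 87 other pathway genes tested, edgeR called 0, with 4 at an unadjusted p below 0.05, and limma called 0. With a common dispersion 3 of them were called, Adssl1, Tymp and Upp1. That setting called a larger share of all genes tested than of the 44 or of these 87, so its calls are not particular to these genes.

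The libraries differed little for these genes. The median SD of log2 CPM was 0.0763 for the 44, against 0.119 for all genes tested. Genes of the same abundance varied as little: among 4607 genes between the 10th and 90th percentile of the set, the median SD was 0.0735, and that of the 33 set members there was 0.0762.

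Small shifts were shared by many of the genes. In replicate 3, 28 of 44 genes (63.6%) had their lowest log2 CPM, against 27.9% of all genes tested, and 11 of these 28 were among the 14 purine genes. In replicate 1, 19 of 44 (43.2%) had their highest, against 29.7%. The shifts were small, with a median of 0.04 in replicate 1 and -0.06 in replicate 3 relative to the mean of each gene. The 3 serine genes were all highest in replicate 4, with a median of 0.11, and 23.1% of all genes tested were highest there. Log2 CPM relative to the mean of each gene was most strongly related to gene length in replicate 3 (rank correlation of 0.279 across 12159 genes, which are not independent). Its rank correlation with GC content was -0.256 in replicate 1 and 0.263 in replicate 4. After correction for GC content and length 30 of 44 were lowest in replicate 3, against 34.4% of all genes. In replicate 1, 22 of 44 were then highest, against 32.6%. Corrected values of the serine genes alone are not given. Markers of dividing cells summed to 1272, 1359, 1308 and 1368 TPM in replicates 1 to 4, and their part in these shifts was not tested.

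**Figure D5:**
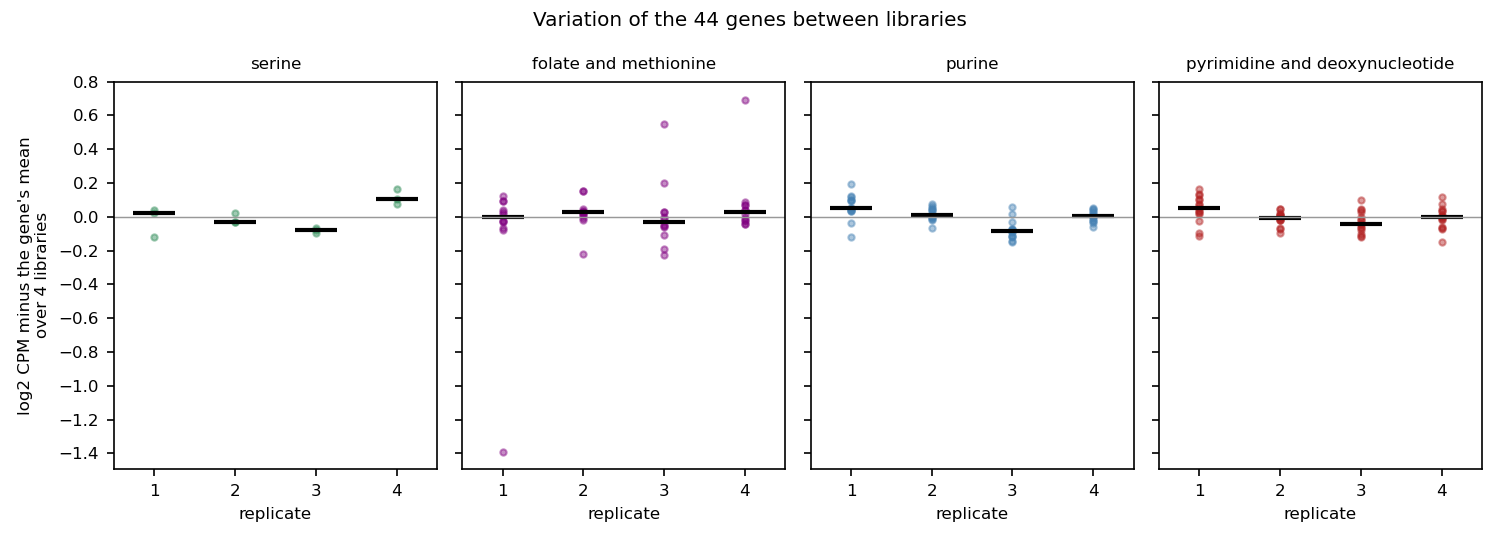
log2 CPM minus the mean of the gene over 4 libraries, 1 point per gene, by replicate and arm, with a black bar at the median of the arm. Most points lie within 0.2 of 0, the purine median is lowest in replicate 3 and the serine median highest in replicate 4, and the outlying low point of the folate arm is Aldh1l2 in replicate 1.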

How the data were processed

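RNA sequencing of 4 T cell libraries of 1 group was analysed. The authors deposited whole-number counts of fragments for each gene, made with featureCounts 1.4.6-p4 on exons of GENCODE M13 (mm10), requiring both ends to map and using the reverse strand option, per the file headers. Neither multiply mapped reads nor reads overlapping several genes were counted, per the file headers, which can lower genes with near copies. The input was STAR output, per the file headers (aligner version not given in the sources used here). Total RNA is the labelled assay, whereas the library protocol linked in the labels bears polyA RNA in its name.

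Symbols came from GENCODE M21, matched by identifier for 50376 of 50600 genes. TPM were computed here from the counts and the exonic length in the files, and compared inside each library as log2(TPM + 0.1), which understates differences of low genes. Contrasts were tested by exact permutation of signs over the libraries, two-sided. Variation between libraries was tested with edgeR 4.0.16 in R 4.3.3 (filterByExpr, TMM, intercept only, trended dispersion, prior count of 2 for log2 CPM), with limma 3.58.1 and the size factors of DESeq2 1.42.0 as alternatives. On simulated counts for 14269 genes, 200 genes raised in 1 library were recovered in 88% of cases at 4-fold, 69% at 2-fold and 47% at 1.5-fold.

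Total counts were 34978213, 118937382, 42274502 and 95356041 in replicates 1 to 4, so replicate 1 is least precise for low genes. Limits for a count of 0 are at 95% and cover counting error only. The libraries were no duplicates of each other (chi-square per degree of freedom of 28.8 or more for every pair). Near copies were sought as 50-base stretches of M21 transcripts shared on either strand, and motifs in RefSeq promoter windows. The genes and lists were chosen with earlier results of these data known. In full are given the genes of the pair contrasts, the 3 highest and 3 lowest of the 44, and of the other pathway genes the 3 highest of each list, of which 1 is not reported here. Other genes that are named (Prps1l3 and further copies and neighbours, Mat1a, Bhmt, Folr1, Amt, Gldc, Mycn) were chosen after their values were seen. The principal transcript length and the correction for GC content and length of the shifts were added after seeing the data. The planned protein identity of paralogs was not run.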

Additional observations from a re-analysis of the deposited data

Results flagged for a closer look

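In each of 76 sets of 4 values, the highest or lowest library was compared with the rest by Dixon's ratio of gap to range at its 95% critical value. Among the sets were the TPM of each gene and the differences between genes and between arms. Chance marks about 1 set in 20, or 3.80 of 76, and 11 were marked. The sets share genes and the same 4 libraries, so they are not independent and an excess over chance cannot be judged. In replicate 1, the TPM was low for Mthfd2 (145, others 157 to 158), Impdh1 (59.4, others 69.7 to 71.6), Cad (205, others 239 to 244) and Tk1 (102.1, others 106 to 107). For Tk1 this depends on the scale, since its log2 CPM relative to its mean was highest in replicate 1, at 0.018. In replicate 3, the TPM was low for Impdh2 (246, others 266 to 267) and Gmps (49.97, others 53.4 to 53.9), and high for Rrm2b (8.64, others 7.57 to 7.72). Among the log2 differences, replicate 1 stood apart for Psph minus Phgdh (-3.01, others -3.20 to -3.18), Rrm2 minus Rrm1 (1.76, others 1.68 to 1.69) and the folate minus the pyrimidine arm median (0.29, others 0.44 to 0.46). Replicate 3 stood apart for Prps1 minus Prps2 (0.61, others 0.51 to 0.52).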

How the results depend on the processing

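The 22 pair differences kept their sign with a pseudocount of 1, with the principal transcript length and without each replicate in turn. In CPM without length, Prps1 minus Prps2 (-0.42) and Rrm2 minus Rrm1 (-0.29) changed sign. Psat1 minus Phgdh (-0.15) and Tyms minus Dtymk (-0.02) kept it, but in 3 and 2 of 4 libraries. Of the 6 arm differences, serine minus purine changed sign with means over genes (-0.13), and folate minus pyrimidine in CPM (-0.22), with the principal transcript length (-0.12) and with means over genes (-0.95). The count of genes at 100 TPM or more, 25, was 26 with TPM over nuclear protein-coding genes and 22 with the principal transcript length. The shares of all protein-coding genes under these alternatives are not given. Of 44 single levels, 39 moved by more than 1 SD with the principal transcript length and 41 with the other denominator. Of the 44 genes, 1 was called as variable between libraries with a common dispersion and 0 under the other alternatives. Among the 14269 genes tested, 66 were called, and 955 with a common dispersion. Other counts among all genes were 27 with limma, 65 with DESeq2 size factors, 75 without a filter on low counts and 72 after correction for GC content and length. Without 1 replicate they were 41 to 68, fewest without replicate 1. For these changes in calls the cause was not tested. No analysis paired across conditions was possible because the libraries form a single group. The gene pair and arm differences were taken inside each library. Depth limits Aldh1l2 most, with 11 counts in replicate 1.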
